A study of Mus musculus with 16 samples.

Results

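The neurotrophin ligand genes *Bdnf* and *Ntf3* and the neurotrophin receptor genes *Ntrk2*, *Ntrk3* and *Ngfr* were examined in mouse cortex with too little or too much ERK/MAPK signaling. The 5 genes were chosen by name, and a gene was measured where a probe set annotated with that symbol alone was present on both array types, the brightest such probe set standing for the gene. By this rule 4 of the 5 were measured, out of 19938 genes on the array type used at P9 and P14 and 22180 on the one used at P21. *Ntf3* had no probe set of its own in either annotation and was not analysed here.

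Neurotrophins are secreted as precursors that are cleaved to mature ligands. Mature BDNF acts through TRKB, the product of *Ntrk2*, and NT-3 mainly through TRKC, the product of *Ntrk3*, and both are receptor tyrosine kinases that signal into the RAS/RAF/MEK/ERK cascade, while p75NTR, the product of *Ngfr*, binds all neurotrophins and their precursors and has no kinase domain. In the cortex *Bdnf* is transcribed mainly in excitatory neurons and rises with neuronal activity, *Ntrk2* is expressed in neurons and, largely as a form without the kinase domain, in astrocytes, and *Ntrk3* is expressed by excitatory neurons. MAP2K1 and MAP2K2, also called MEK1 and MEK2, are the kinases that activate ERK, so the arrays ask how the transcripts of a ligand and receptors upstream of ERK stood when the kinases below them were removed or made constitutively active.

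Each array held cortical RNA of 1 mouse. In the loss-of-function line, *Map2k1* was flanked by loxP sites, *Map2k2* was deleted in the germline, and Cre was driven by *Neurod6*, also called *Nex*, so that both genes were to be lost in postmitotic cortical excitatory neurons, while interneurons and glia kept *Map2k1*. There were 2 *Map2k1/2;Neurod6-Cre* mutants (numbers 1 and 4) beside 2 controls (2 and 3) at P9, and 3 mutants (1, 9 and 11) beside 3 controls (2, 10 and 12) at P14. The gain-of-function line carried a Cre-dependent, constitutively active *Map2k1* under the same driver, and was represented at P21 by 3 *ca-Map2k1;Neurod6-Cre* mutants (numbers 1, 3 and 6) beside 3 controls (2, 4 and 5). Controls were littermates on a mixed background that could be positive or negative for Cre, and the alleles of each control on the arrays, including whether it also lacked *Map2k2*, are unknown here. The labels name sensorimotor cortex as the tissue, whereas the methods describe dorsal cortices.

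Values are in log2 units, each unit being a 2-fold step. Levels are compared only within an age, because the P9 and P14 arrays may have been normalized apart and the P21 arrays are of another type. Array medians lay between 6.13 and 6.18 at P9, 7.91 and 8.08 at P14 and 6.23 and 6.31 at P21. Fits that join P9 and P14, including the P14 minus P9 differences below, therefore set values on unlike scales against each other. In the probe set values used here, the targeted genes did not check the labels of the loss-of-function mice. The paper did check them at P14, where it reports a reduction of the deleted *Map2k1* exon from individual probes. The *Map2k1* probe set read 10.74 to 10.88 in P14 controls and 10.79 to 10.91 in P14 mutants, and *Map2k2* read 9.01 to 9.18 and 9.06 to 9.14, and neither differed at P9 (0.01 and 0.00 log2), but each probe set summarises a whole transcript and the deletion of *Map2k1* removes 1 exon in 1 class of cell. The *Map2k2* allele was in every cell of the mutants, and whether the controls carried it is unknown here. Why the *Map2k2* reading did not differ was not tested. At P21 *Map2k1* read 10.08 to 10.12 in controls and 10.29 to 10.38 in mutants (0.23 ± 0.06 log2, SE, limma adjusted p = 0.310). Excitatory neuron markers averaged 11.66 to 11.70 in P14 controls and 11.62 to 11.69 in P14 mutants over the 5 measured of the 6 listed. None of the measured markers of excitatory neurons, astrocytes, oligodendrocytes and their precursors, interneurons, microglia, vessels, meninges and choroid plexus or subplate passed the limma test at any age. P14 mice 1 and 2 stood apart from mice 9, 10, 11 and 12 in the same direction, with a correlation of 0.76 between their deviations from the group means over 19938 genes, and no source used here calls them a batch. P14 mutants 9 and 11 were female by their *Xist* and Y-linked transcripts, and the other arrays were male. Among P14 mice 9 to 12, both mutants were thus female and both controls male, so genotype and sex cannot be told apart there. A fit with mice 1 and 2 as a block against them includes that same comparison. A P14 fit with inferred sex draws its genotype difference from mutant 1 against the controls.

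*Bdnf* (chr2:109674700-109727043, GRCm38.p6) has alternative first exons, each with a promoter of its own, and some of these promoters are known targets of CREB and other activity-regulated factors. RefSeq promoter windows of GRCm38.p6 matched 3 of the 4 measured genes, with 7 for *Bdnf* and 1 each for *Ntrk2* and *Ngfr*. The 250 bases before each start were searched on both strands for the core of the cAMP response element (TGACG), the full palindromic element that contains that core (TGACGTCA), the E-box CACGTG, the AP-1 letters TGANTCA and the EGR letters GCGNGGGCG. Over all 32851 windows of 27025 genes, these were present in 17.8%, 1.55%, 6.02%, 6.75% and 4.7%, respectively. The 2 *Bdnf* windows with a match are shown because they are the only windows of the measured genes that held any of these letters, with the match in capitals.

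Bdnf window 2, chr2:109676782-109677031, plus strand: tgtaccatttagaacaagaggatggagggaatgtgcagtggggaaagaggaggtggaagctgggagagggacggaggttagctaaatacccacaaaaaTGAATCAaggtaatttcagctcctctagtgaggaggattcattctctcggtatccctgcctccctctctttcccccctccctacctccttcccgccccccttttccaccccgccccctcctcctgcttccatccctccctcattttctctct
Bdnf window 3, chr2:109692186-109692435, plus strand: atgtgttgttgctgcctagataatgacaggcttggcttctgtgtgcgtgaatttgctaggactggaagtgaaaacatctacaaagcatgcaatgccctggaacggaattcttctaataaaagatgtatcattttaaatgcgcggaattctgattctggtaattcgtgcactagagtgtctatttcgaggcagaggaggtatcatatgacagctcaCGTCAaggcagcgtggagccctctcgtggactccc

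The match in window 2 was to the AP-1 letters and began 152 bases before the start, and the match in window 3 was to the CRE core on the reverse strand and began 35 bases before the start. A match of letters is not a binding site, and the array reads all *Bdnf* transcripts through 1 probe set, so the windows cannot be tied to the values that follow.

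*Bdnf* was the member with the largest difference between mutants and controls in the loss-of-function line. At P14 it read 7.77, 7.94 and 7.76 in the control mice (2, 10 and 12) against 7.27, 7.52 and 7.42 in the mutant mice (1, 9 and 11). Every mutant lay below every control, by at least the gap between 7.52 and 7.76. Each value was below the median of its array. It stood 0.96 to 1.14 log2 above the 25th percentile of the array in controls and 0.57 to 0.63 in mutants. The difference was -0.42 ± 0.10 log2 (SE, n = 3 mice per group, 95% interval -0.66 to -0.18), so that mutant signal was 74.7% of control. It did not pass the limma test over all genes (Benjamini-Hochberg adjusted p = 0.138). In cortical RNA, fewer cells that make a transcript and less transcript per cell cannot be told apart.

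The P14 result for *Bdnf* passed the threshold in some settings and not in others. Its adjusted p was 0.0353 after quantile normalization within the age, 0.0497 with P9 and P14 in 1 fit, and 0.0134 with mice 1 and 2 as a block against mice 9 to 12. Among mice 9 to 12 alone, with female mutants and male controls, the difference was -0.38 (adjusted p = 0.0652). Mouse 1 was 0.50 log2 below mouse 2. The adjusted p was 0.0767 after median centring, 0.0916 with dim genes left out and 0.138 with the mean of probe sets. It was 0.275 without moderation of the variance, 0.142 with trended and robust moderation, and 0.156 to 0.561 with a mouse left out. With inferred sex in the fit, which sets mutant 1 against the controls, the difference was -0.56. These are plotted with the other settings.

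**Figure D1:**
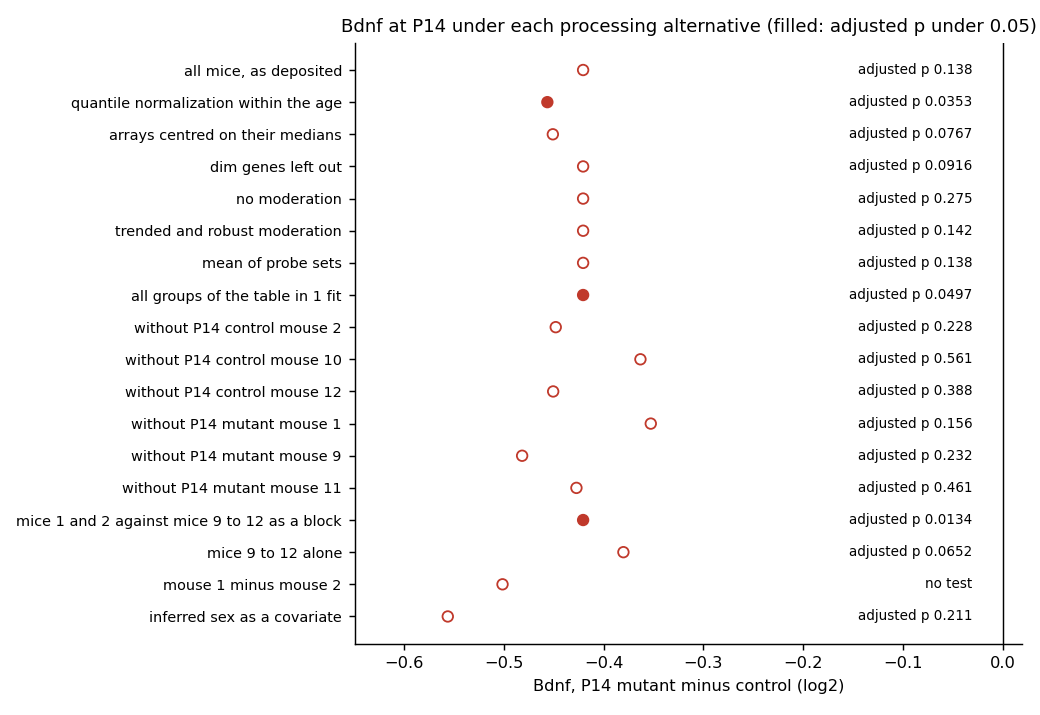
*Bdnf*, P14 mutant minus control in log2 units (horizontal axis), under each processing setting (vertical axis), with the limma adjusted p at the right; filled points have an adjusted p under 0.05. Every point lies below 0, between -0.56 and -0.35, and 3 of the settings pass the threshold. All mutants lay below all controls, so leaving out or regrouping mice could not change the sign.

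At P9 *Bdnf* read 6.48 and 6.51 in the control mice (2 and 3) against 6.09 and 6.26 in the mutant mice (1 and 4). Both mutants again lay below both controls. The difference was -0.32 ± 0.09 log2 (SE, n = 2 mice per group, 95% interval -0.55 to -0.09, adjusted p = 0.333), or 80.0% of control signal. The difference at P14 minus that at P9 was -0.10 ± 0.15 log2 (SE, limma interaction, adjusted p = 1.00), within its error.

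At P21, with active *Map2k1*, *Bdnf* read 6.78, 7.08 and 7.04 in the control mice (2, 4 and 5) against 7.01, 7.03 and 7.18 in the mutant mice (1, 3 and 6). Control 2 was the low value, and the other mice of both genotypes overlapped. The difference was 0.11 ± 0.10 log2 (SE, 95% interval -0.12 to 0.34, adjusted p = 0.762), with an interval that spans both signs.

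**Figure D2:**
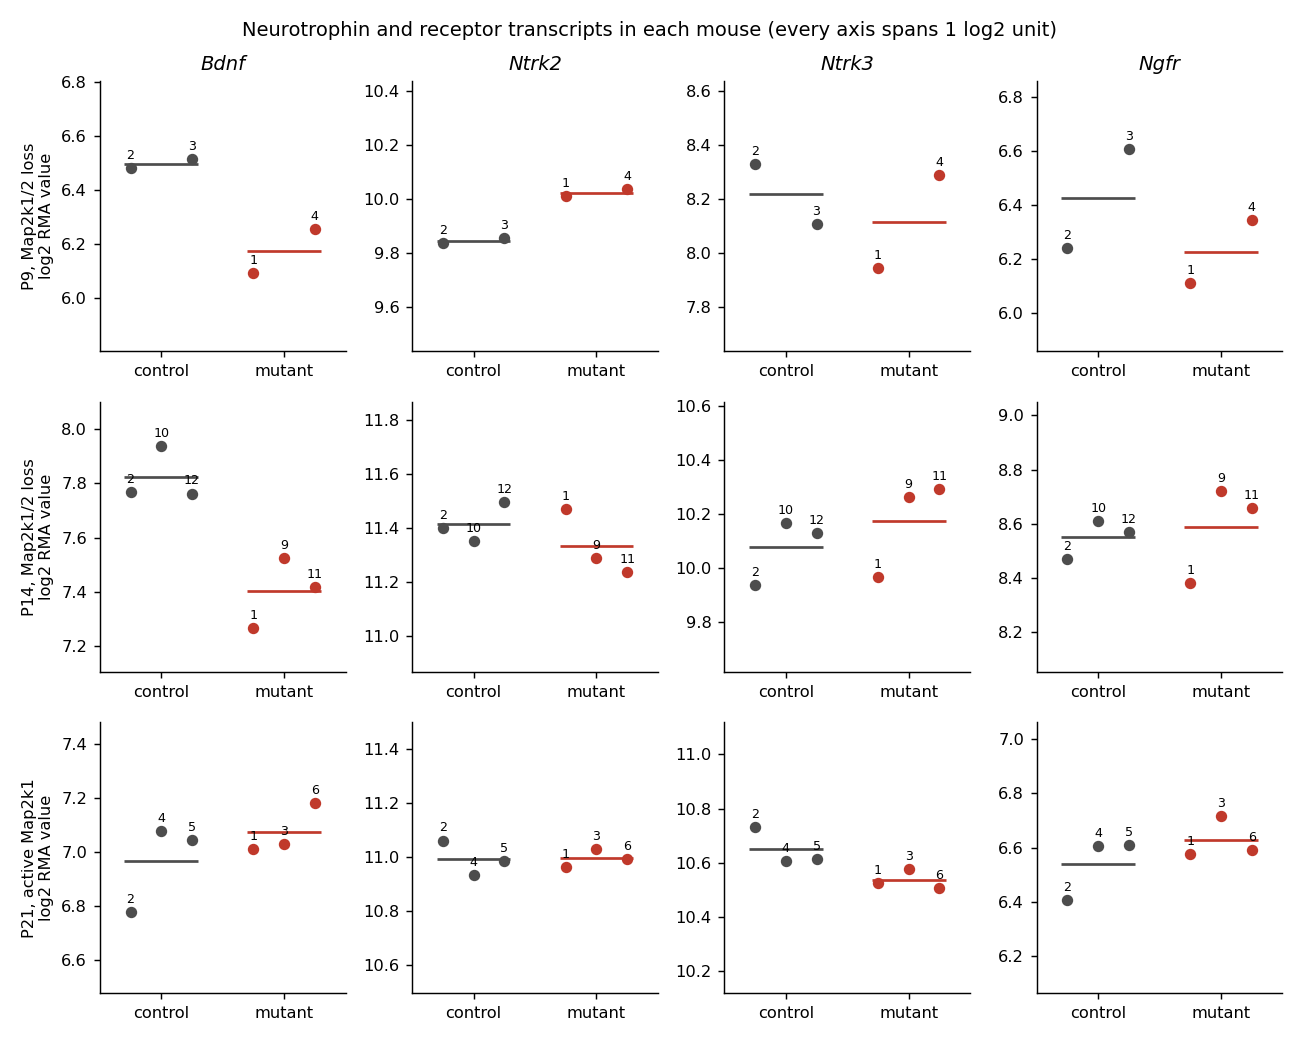
Log2 RMA value (vertical axes, each spanning 1 log2 unit) of *Bdnf*, *Ntrk2*, *Ntrk3* and *Ngfr* in each control (grey) and mutant (red) mouse at P9, P14 and P21, with mouse numbers and a line at each group mean. *Bdnf* mutants lie at 7.27 to 7.52 below the P14 controls at 7.76 to 7.94, and the receptor values of the 2 genotypes are mixed at P14.

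The other measured ligand of TRKB was *Ntf5*, which encodes NT-4 (chr7:45413695-45417179). It read 7.08, 7.21 and 7.05 in the P14 control mice (2, 10 and 12) against 7.10, 7.56 and 7.37 in the mutant mice (1, 9 and 11), with mutant 1 inside the range of the controls. The difference was 0.23 ± 0.13 log2 (SE, adjusted p = 0.808), opposite in sign to that of *Bdnf*. Both genes read low on the scale, below the median of each P14 array, whose 25th percentiles were 6.63 to 6.89. At P9 the controls read 5.03 and 5.15 and the mutants 5.19 and 5.40 (0.20 ± 0.11, adjusted p = 0.577). At P21 the controls read 4.43 to 4.74 and the mutants 4.47 to 4.83 (0.10 ± 0.12, adjusted p = 0.809). These P21 values lay below the 25th percentile of every array (4.87 to 4.93), near the floor.

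*Ntrk2* (chr13:58806472-59133970) was close to its control level in the older mice of either line. At P14 it read 11.40, 11.35 and 11.50 in the control mice (2, 10 and 12) against 11.47, 11.29 and 11.24 in the mutant mice (1, 9 and 11). Mutant 1 was among the controls while mutants 9 and 11 lay below them. The difference was -0.08 ± 0.10 log2 (SE, 95% interval -0.31 to 0.14, adjusted p = 0.988). At P21 the controls read 10.94 to 11.06 and the mutants 10.96 to 11.03, a difference of 0.00 ± 0.07 log2 (95% interval -0.16 to 0.16, adjusted p = 0.996), and the mutants lay inside the range of the controls.

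At P9 *Ntrk2* read 9.84 and 9.86 in the control mice (2 and 3) against 10.01 and 10.04 in the mutant mice (1 and 4), the only age at which its groups did not overlap. The difference was 0.18 ± 0.08 log2 (SE, 95% interval -0.02 to 0.37, adjusted p = 0.513). Astrocyte markers moved in the same direction in these mice, with 6 of 8 higher on average in the mutants, 4 of them at an unadjusted p under 0.05, and a list mean of 9.87 to 9.89 in controls and 10.01 to 10.11 in mutants. The part of astrocytes in the *Ntrk2* value was not tested. The P14 difference of *Ntrk2* minus its P9 difference was -0.26 ± 0.13 log2 (SE, limma interaction, unadjusted p = 0.0798, adjusted p = 1.00).

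The values of *Ntrk3* (chr7:78179986-78581034) overlapped between the genotypes at P9 and P14. At P14 it read 9.94, 10.17 and 10.13 in the control mice (2, 10 and 12) against 9.97, 10.26 and 10.29 in the mutant mice (1, 9 and 11). Mice 1 and 2, the arrays that stood apart, were the lowest of their genotypes. The difference was 0.10 ± 0.12 log2 (SE, 95% interval -0.18 to 0.37, adjusted p = 0.989). At P9 it read 8.33 and 8.11 in the control mice (2 and 3) against 7.94 and 8.29 in the mutant mice (1 and 4), with mutant 4 between the controls (-0.10 ± 0.14, adjusted p = 0.856).

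In the gain-of-function line at P21, *Ntrk3* read 10.73, 10.61 and 10.61 in the control mice (2, 4 and 5) against 10.52, 10.58 and 10.51 in the mutant mice (1, 3 and 6). All mutants lay below all controls, by as little as the gap between 10.58 and 10.61. The difference was -0.11 ± 0.07 log2 (SE, 95% interval -0.27 to 0.05, adjusted p = 0.615). In the same mice the measured oligodendrocyte markers averaged 10.03 to 10.36 in controls and 9.75 to 10.01 in mutants, with 5 of 5 lower. The measured excitatory neuron markers averaged 10.82 to 10.88 in controls and 10.78 to 10.83 in mutants, also with 5 of 5 lower. The part of either cell type in the *Ntrk3* value was not tested.

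*Ngfr* (chr11:95568818-95587698), which in the postnatal forebrain is best known from basal forebrain cholinergic neurons, showed no group difference beyond the spread of the mice. At P14 it read 8.47, 8.61 and 8.57 in the control mice (2, 10 and 12) against 8.38, 8.72 and 8.66 in the mutant mice (1, 9 and 11). As with *Ntrk3*, mice 1 and 2 gave the lowest values, and the difference was 0.04 ± 0.11 log2 (SE, 95% interval -0.22 to 0.30, adjusted p = 0.995). At P9 it read 6.24 and 6.61 in controls and 6.11 and 6.34 in mutants (-0.20 ± 0.15, adjusted p = 0.706). At P21 it read 6.41, 6.61 and 6.61 in controls and 6.58, 6.72 and 6.59 in mutants (0.09 ± 0.08, 95% interval -0.11 to 0.28, adjusted p = 0.771).

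**Figure D3:**
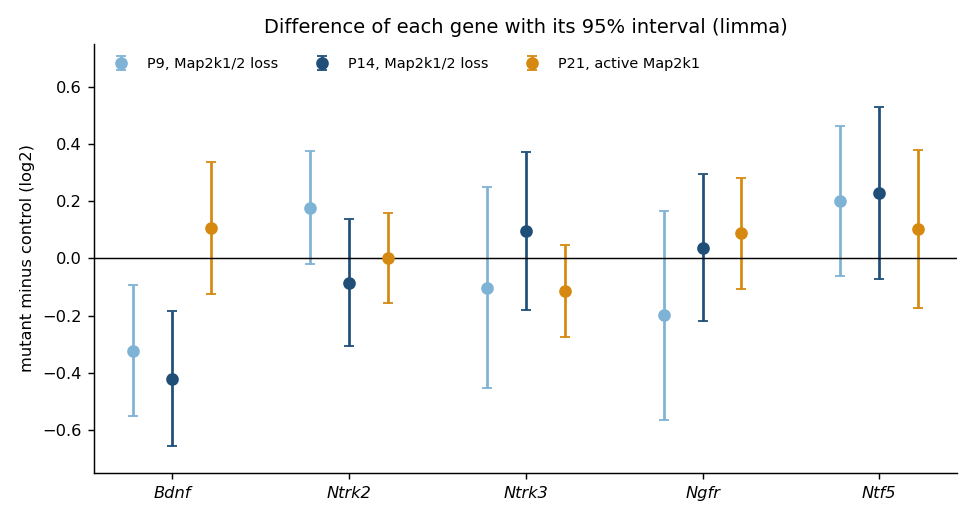
Mutant minus control in log2 units (vertical axis) for each gene (horizontal axis) with its 95% interval from limma, at P9 and P14 for loss of *Map2k1/2* and at P21 for active *Map2k1*. The *Bdnf* intervals at P9 and P14 lie below 0, ending at -0.09 and -0.18, and the intervals of the other genes cross 0.

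None of the 4 measured members passed the limma test at an adjusted p under 0.05 at P9, where 15 of 19938 genes (0.0752%) did, at P14, where 217 (1.09%) did, or at P21, where 0 of 22180 (0%) did. At an unadjusted p under 0.05, 1 of the 4, *Bdnf*, was lower at P14, against 4.38% of all genes, and 1, again *Bdnf*, was lower at P9, against 5.21%. None of the 4 reached that p at P21, where 1136 genes were higher (5.12%) and 1177 lower (5.31%). No member's difference reached 1.5-fold, the size the study asked for beside its p. Groups did not overlap for 1 member at P14, lower, against 6.52% of all genes, for 1 higher and 1 lower at P9, against 22% and 19.7%, and for 1 lower and 0 higher at P21, against 7.67% and 8.15%.

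The members did not vary as 1 set. Each mouse was taken as its deviation from the control mean of its own age, and Pearson correlations were taken across the 16 mice. These include the group differences, and the arrays of an age may have been normalized together. They were 0.45 for *Bdnf* with *Ngfr*, 0.31 for *Ntrk3* with *Ngfr*, -0.60 for *Ntrk2* with *Ngfr*, -0.46 for *Ntrk2* with *Ntrk3*, -0.16 for *Bdnf* with *Ntrk2* and -0.14 for *Bdnf* with *Ntrk3*. Among 9101 genes brighter than the median gene on both array types, the 3 most like *Bdnf* by this measure were *Map3k9* (r = 0.915), a kinase upstream of JNK, *Etv5* (0.915), an ETS factor known to be induced by ERK signaling, and *Sox5* (0.913), a factor of deep-layer neurons. *Map3k9* fell by 0.50 log2 at P14 (adjusted p = 0.0419) and *Etv5* fell by 1.06 (adjusted p = 0.00469), whereas *Sox5* had a difference of -0.31 that did not pass (adjusted p = 0.164). The choice of these genes used the same group differences, so a fall beside that of *Bdnf* was built into it and is no separate result. The genes most like *Ntrk2* were *Tgfbrap1* (r = 0.935), *Pip4k2a* (0.858) and *C1qa* (0.848), those most like *Ntrk3* were *Slc7a6* (0.912), *Sntg2* (0.910) and *Ehmt1* (0.893), and those most like *Ngfr* were *Gjd3* (0.894), *Chmp6* (0.792) and *Ccn5* (0.778). None of these 9 genes passed the test at P9 or P14, and the same limit holds for them.

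Genes that carry, cut and release neurotrophins, or that pass on or follow their signal, were read from lists. Beside the calls of these lists, 0.697% of all genes were called lower at P14 in the fit by age. With mice 1 and 2 as a block, 1333 of all 19938 genes were called at P14, 728 of them lower. Among mice 9 to 12 alone, 984 were called, 555 of them lower. Among other neurotrophins, receptors and co-receptors, 10 of 12 were measured and 2 fell at P14, both sorting receptors of the VPS10P family, to which sortilin, the co-receptor of p75NTR for neurotrophin precursors, belongs. *Sorl1*, which encodes SORLA, a receptor that also sorts TRKB, read 10.94 to 11.14 in P14 controls and 9.66 to 9.79 in mutants, and fell by 1.33 ± 0.09 log2 (SE, adjusted p = 0.00186). *Sorcs3* read 9.60 to 9.69 in controls and 8.59 to 8.72 in mutants, and fell by 1.00 ± 0.08 log2 (adjusted p = 0.00373). At P9 the groups of both genes were also apart, at 9.44 and 9.66 against 8.50 and 8.72 for *Sorl1* and at 7.87 and 7.88 against 7.15 and 7.29 for *Sorcs3*, but neither passed (adjusted p = 0.103 and 0.117). The median difference of the list was 0.01 log2 at P14, beside 0.02 over all genes, and *Sort1*, which encodes sortilin itself, differed by 0.04 ± 0.08 log2 (adjusted p = 0.995). At P21 *Sort1* had the lowest p of the list (-0.15 ± 0.06 log2, adjusted p = 0.476), with controls at 11.38 to 11.42 and mutants at 11.21 to 11.28.

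Of the genes of precursor cleavage, sorting and release, 15 of 17 were measured and 1 fell at P14. *Pcsk1*, which encodes proprotein convertase 1/3 of the regulated secretory pathway, read 10.09, 10.00 and 9.70 in the P14 control mice (2, 10 and 12) against 7.93, 7.93 and 7.75 in the mutant mice (1, 9 and 11). It fell by 2.06 ± 0.12 log2 (SE, adjusted p = 0.00167), to 24.0% of control signal, and this call was lost only without moderation of the variance (0.0688). The median of the list was 0.07 log2. At P9 *Pcsk1* read 8.12 and 8.23 in controls and 7.20 and 7.55 in mutants (-0.80 ± 0.13, adjusted p = 0.155). *Pcsk6*, which encodes the convertase PACE4, had the lowest p of the list at P9, at 6.89 and 6.90 in controls and 7.42 and 7.48 in mutants (0.55 ± 0.08, adjusted p = 0.130). At P14 it was called higher only with mice 1 and 2 as a block (0.38 log2, adjusted p = 0.0456). *Cadps2*, which encodes a priming factor for dense-core vesicles that is known to promote BDNF release, had the lowest p at P21 (-0.22 ± 0.09, adjusted p = 0.473).

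Among adaptors and proximal partners of TRK receptors, 22 of 23 were measured at P9 and P14, and 1 gene, *Shc3*, fell at either age. *Shc3* encodes ShcC, a neuronal adaptor that couples phosphorylated TRK receptors to GRB2 and RAS. It read 10.36 and 10.11 in the P9 control mice (2 and 3) against 8.60 and 8.50 in the mutant mice (1 and 4), and fell by 1.69 ± 0.11 log2 (SE, adjusted p = 0.0315), a call that was lost without either mutant (adjusted p = 0.239 and 0.197) or without moderation of the variance (0.527). At P14 it read 11.60 to 11.73 in controls and 9.93 to 10.05 in mutants, fell by 1.70 ± 0.08 log2 (adjusted p = 0.000917) and was left at 30.7% of control signal. The other measured adaptors had no call in the fit by age, and the median of the list was -0.05 log2 at P14. With mice 1 and 2 as a block, *Irs2*, an adaptor best known from insulin and IGF receptors, was also called at P14 (-0.29 log2, adjusted p = 0.0274). At P21 *Shc3* read 10.58 to 10.90 in controls and 10.85 to 11.00 in mutants (0.17 ± 0.10, adjusted p = 0.596). *Irs2* had the lowest p of the list there (-0.24 ± 0.08, adjusted p = 0.383).

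None of the 9 measured of 11 effectors of p75NTR passed at any age in the fit by age. At P14 2 were called lower with mice 1 and 2 as a block, where 728 of all 19938 genes were. Among mice 9 to 12 alone 2 were called lower, where 555 of all genes were. The lowest p at each age belonged to *Bex1*, which encodes a small protein that binds p75NTR. At P14 it read 9.26, 8.59 and 8.94 in the control mice (2, 10 and 12) against 8.39, 7.65 and 7.54 in the mutant mice (1, 9 and 11). All mutants lay below all controls, although mice 1 and 2 were the highest of their genotypes, and the difference was -1.07 ± 0.25 log2 (SE, adjusted p = 0.131). With mice 1 and 2 as a block its adjusted p was 0.0014. Among mice 9 to 12 alone, with female mutants and male controls, it was 0.0046. With inferred sex in the fit, which sets mutant 1 against the controls, the difference of *Bex1* was -0.54.

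Regulators known to act on *Bdnf* transcription were measured for 14 of 16, of which 2 fell at P14. *Npas4*, an activity-induced factor that binds *Bdnf* promoters, read 8.87, 9.02 and 9.25 in the P14 control mice (2, 10 and 12) against 7.56, 8.04 and 7.48 in the mutant mice (1, 9 and 11). It fell by 1.35 ± 0.17 log2 (SE, adjusted p = 0.0173), and the call was lost without control 10, control 12 or mutant 11 (adjusted p = 0.0867, 0.0858 and 0.107), or without moderation (0.159). With inferred sex in the fit, which sets mutant 1 against the controls, the difference of *Npas4* was -1.48. *Arnt2*, which encodes the partner with which NPAS4 pairs, read 11.10 to 11.42 in controls and 10.38 to 10.61 in mutants and fell by 0.77 ± 0.11 log2 (adjusted p = 0.0294), a call that was lost without any of 5 of the 6 mice (adjusted p between 0.0707 and 0.163), as under median centring and no moderation (0.071 and 0.162). With the sex term the difference of *Arnt2* was -0.66. At P9 *Npas4* read 6.44 and 6.46 in controls and 6.31 and 6.43 in mutants (-0.08 ± 0.09, adjusted p = 0.803), and *Arnt2* differed by -0.16 ± 0.09 (adjusted p = 0.597). The median of the list was -0.05 log2 at P14. *Bhlhe40*, a repressor that binds *Bdnf* promoter IV, had the lowest p at P21 (0.25 ± 0.07, adjusted p = 0.286). At P14 it was called lower with mice 1 and 2 as a block (-0.39 log2, adjusted p = 0.0315).

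**Figure D4:**
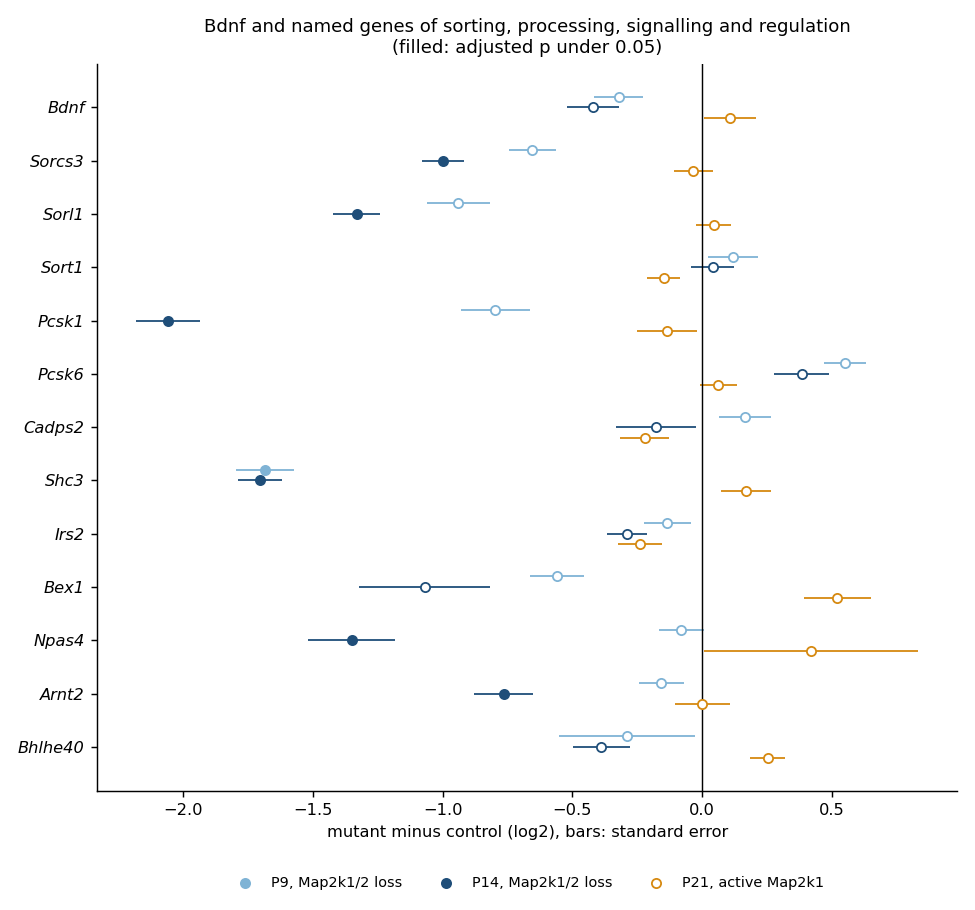
Mutant minus control in log2 units (horizontal axis; bars, standard error) for *Bdnf* and the named genes of sorting, processing, signaling and regulation (vertical axis) at each age, filled where the adjusted p is under 0.05. *Pcsk1* at -2.06, *Shc3* at -1.70 and *Npas4* at -1.35 are the lowest of the P14 values, *Bdnf* lies at -0.42, and no P21 point is filled.

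Genes that BDNF is known to induce in cultured neurons, most of which also follow neuronal activity or ERK in other ways, formed the list with the most calls. All 18 on the list were measured and 8 fell at P14, where 0.697% of all genes did, with the others not passing. The mean of every one of the 18 was lower in the mutants, the groups of 16 did not overlap (6.52% of all genes), and the median difference was -0.71 log2 beside 0.02 over all genes. *Arc*, which encodes a postsynaptic protein that drives AMPA receptor endocytosis, read 10.80, 11.06 and 10.82 in the control mice (2, 10 and 12) against 8.94, 9.01 and 8.83 in the mutant mice (1, 9 and 11), and fell by 1.97 ± 0.10 log2 to 25.6% of control signal (SE, adjusted p = 0.000941). *Nr4a1*, an orphan nuclear receptor induced at once by activity, read 10.67 to 10.90 in controls and 8.95 to 9.19 in mutants and fell by 1.71 ± 0.10 log2 (adjusted p = 0.00167). *Dusp6*, an ERK phosphatase that is itself induced by ERK, read 10.54 to 10.81 in controls and 8.70 to 9.41 in mutants and fell by 1.66 ± 0.18 log2 (adjusted p = 0.0111).

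The other genes of this list that fell at P14 were *Egr2* (by 1.23 ± 0.17 log2, SE), *Fos* (by 1.14 ± 0.17), *Vgf* (by 1.14 ± 0.16), *Homer1* (by 0.97 ± 0.12) and *Egr1* (by 0.71 ± 0.12, adjusted p = 0.0490). *Egr1*, *Egr2* and *Fos* are immediate-early transcription factors, *Vgf* encodes a neuropeptide precursor and *Homer1* a postsynaptic scaffold with an activity-induced short form. The count of 8 was 2 without control 10, control 12 or mutant 11, 3 without mutant 9, 5 without control 2 and 9 without mutant 1, with *Arc* and *Nr4a1* called each time. It was 1 without moderation, 12 among mice 9 to 12 alone, 11 with P9 and P14 in 1 fit and 13 with mice 1 and 2 as a block. Over all 19938 genes these fits called 18, 984, 480 and 1333, respectively. With inferred sex in the fit, which sets mutant 1 against the controls, all 8 genes remained lower. The differences were -1.95 for *Arc*, -1.76 for *Nr4a1*, -1.50 for *Egr2*, -1.35 for *Vgf*, -1.34 for *Fos*, -1.25 for *Dusp6*, -1.10 for *Homer1* and -0.67 for *Egr1*. None of the list rose in any of these fits. *Arc*, *Fos*, *Egr1* and *Egr2*, as well as *Npas4* above, are among the genes the study named from these P14 arrays, so their count is not independent evidence of a direction, and *Sst* is also listed as an interneuron marker.

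At P9 *Vgf* fell by 1.77 ± 0.11 log2 (SE, adjusted p = 0.0315), from 7.84 and 7.93 in controls to 6.01 and 6.23 in mutants, and no other gene of the list passed, while 16 of 18 means were lower and the median was -0.20 log2. The call of *Vgf* was lost without either mutant (adjusted p = 0.239 and 0.114) or without moderation of the variance (0.527). The P14 difference minus the P9 difference was -1.62 ± 0.21 log2 for *Arc* and -1.29 ± 0.17 for *Nr4a1* (SE, limma interaction, adjusted p = 0.112 for each). Over all 19938 genes the interaction called 0 at an adjusted p under 0.05 and 849 at an unadjusted p under 0.05. At P21 none of the 18 passed, the median was 0.02 log2, and the lowest p was that of *Inhba*, which encodes the activin A subunit, at 7.09 to 7.30 in controls and 6.51 to 6.74 in mutants (-0.62 ± 0.09, adjusted p = 0.176). At an unadjusted limma p under 0.05, 6 were lower and 0 higher, against 5.31% and 5.12% of all genes. Groups lay apart for 5 lower and 0 higher, against 7.67% and 8.15%, while 10 means were higher and 8 lower.

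**Figure D5:**
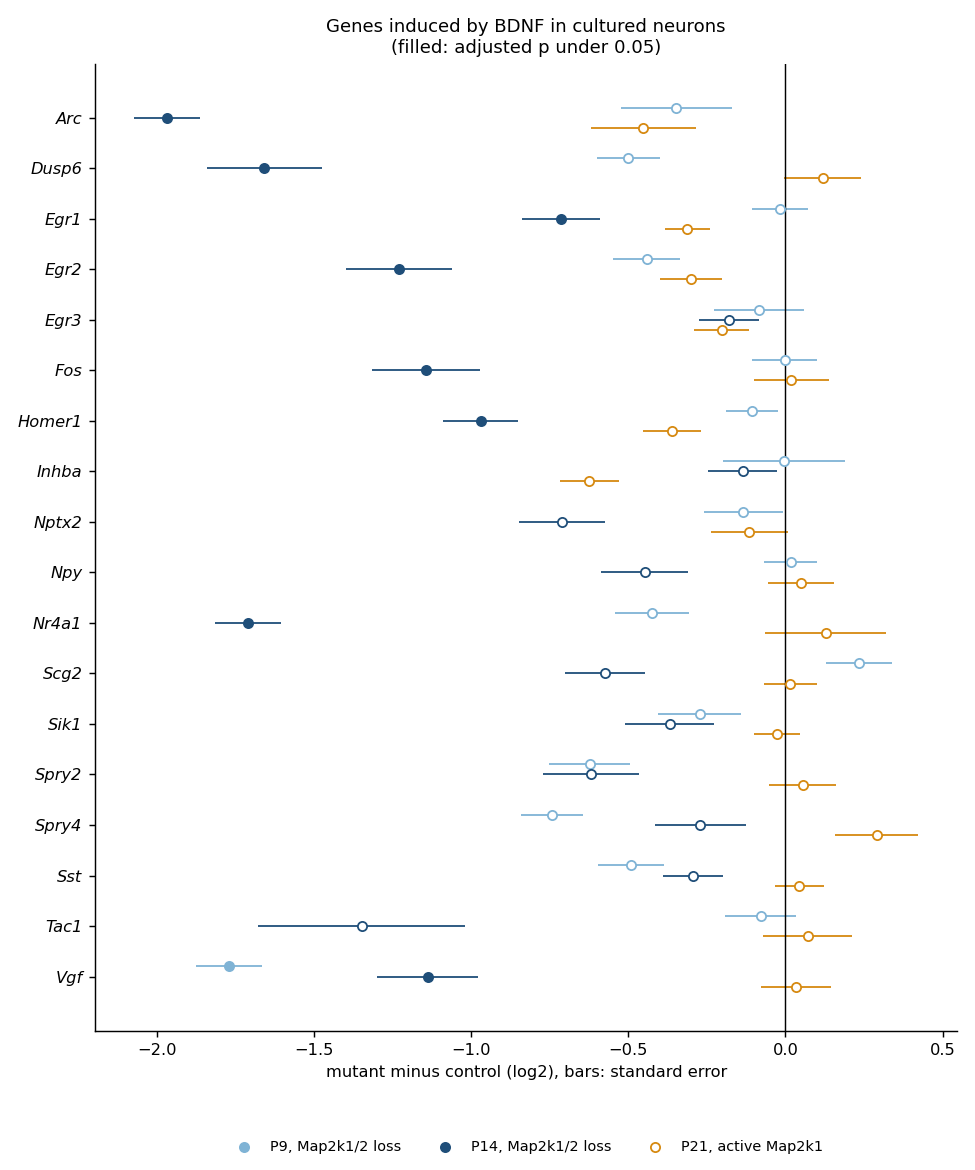
Mutant minus control in log2 units (horizontal axis; bars, standard error) for the 18 genes induced by BDNF in cultured neurons (vertical axis) at each age, filled where the adjusted p is under 0.05. All P14 points lie below 0, from -0.14 for *Inhba* to -1.97 for *Arc*, and 8 are filled, whereas the P21 points lie on either side of 0.

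Other trophic ligands and receptors were measured for 26 of 27, and none passed at any age in the fit by age. At P14 4 were called with mice 1 and 2 as a block (1 higher, 3 lower), beside 1333 of all 19938 genes. Among mice 9 to 12 alone 3 were called (1 higher, 2 lower), beside 984 of all genes. *Hgf*, the ligand of MET, had the lowest p at P14, reading 7.68, 7.68 and 7.70 in controls and 8.22, 8.17 and 8.61 in mutants (0.64 ± 0.13 log2, SE, adjusted p = 0.0779), and its adjusted p was 0.013 with the block, 0.041 among mice 9 to 12 alone and 0.444 with the sex term. *Met*, a receptor tyrosine kinase of cortical projection neurons, read 9.67, 9.10 and 9.09 in the P14 control mice (2, 10 and 12) against 8.78, 8.19 and 8.08 in the mutant mice (1, 9 and 11) (-0.94 ± 0.23, adjusted p = 0.140). As with *Bex1*, mice 1 and 2 were the highest of their genotypes, and the adjusted p of *Met* was 0.00021 with the block and 0.0019 among mice 9 to 12 alone. With the sex term, which sets mutant 1 against the controls, the difference of *Met* was -0.51. At P21, with active *Map2k1*, *Met* read 7.49 to 8.05 in controls and 8.39 to 8.91 in mutants (0.83 ± 0.18, adjusted p = 0.245).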

How the data were processed

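Array values of cortical RNA from 16 mice, 1 array per mouse, were used as deposited: by the RMA algorithm the authors corrected background, applied quantile normalization and took a median polish per probe set, and the deposited values are log2. Partek 6 is listed in the submitters' notes on processing, while any build was not given in the sources used here. Precision is limited by how many arrays there are. GEO's platform annotation gave exactly 1 symbol to 21789 of 35557 probe sets on the P9 and P14 array type (1621 several, 12147 none) and to 23521 of 41345 on the P21 type (1820 several, 16004 none), and a gene took its brightest probe set. Each age was fitted alone, mutant minus control, by limma 3.58.1 (lmFit, eBayes; R 4.3.3; two-sided, Benjamini-Hochberg over all genes), and adjusted p-values are from limma throughout. An exact permutation test could not reach p = 0.05 here (smallest p 0.1 for 3 against 3 and 0.333 for 2 against 2). The fit was tested on simulated data, and alternatives changed the scaling, the filter, the moderation, the mice and the covariates. Named were the members, list genes called at any age, otherwise each list's lowest p per age, and the 3 genes most correlated with each member. The members, the lists and the sets of mice were chosen with earlier results of these data known. The methods count 2 litters at P9 and 3 at P14 without assigning mice to them.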

Additional observations from a re-analysis of the deposited data

Results flagged for a closer look

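Among the named genes, the results of 4 were singled out because every mutant lay on one side of the controls at one age and on the other side at another. Each of the 4 had the lowest p of its list at P21, and that choice favours groups that lie apart there. How many of all genes switch sides in this way was not counted. Loss and gain of function were measured on different array types and at different ages, so the difference between them was not tested, and none of these values passed the limma test in the fit by age. *Bex1* was lower in the loss-of-function mutants (-0.56 log2 at P9 and -1.07 at P14) and higher in the gain-of-function mutants (0.52 at P21). *Met* had the same order, at -0.59 log2 at P9, -0.94 at P14 and 0.83 at P21. *Bhlhe40* differed by -0.39 log2 at P14 and 0.25 at P21. *Sort1* was higher at P9 (0.12 log2) and lower at P21 (-0.15). At P14 *Bex1* and *Met* passed with mice 1 and 2 as a block (adjusted p = 0.0014 and 0.00021), as did *Bhlhe40* (0.031). *Bex1* and *Met* also passed at P14 among mice 9 to 12 alone, with P9 and P14 in 1 fit and without mutant 1, and at P9 with trended and robust moderation. Among mice 9 to 12 alone and without mutant 1, all P14 mutants were female and all controls male. With inferred sex in the fit, which sets mutant 1 against the controls, the P14 differences were smaller. They were -0.54 for *Bex1*, -0.51 for *Met* and -0.24 for *Bhlhe40*. With 2 against 2 mice at P9, 22% of all genes lay apart on the higher side and 19.7% on the lower side, and at P21 the shares were 8.15% and 7.67%. At P14 6.52% lay apart on the lower side. Groups of 2 or 3 mice were too small to look for single mice far from the rest of their group.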

How the results depend on the processing

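No paired analysis was possible because mutants and controls of an age share no mouse number and no source used here says which mice formed a pair. The count of genes called at P9 (15) was 32 after median centring, 61 without dim genes, 0 without moderation, 235 with trended and robust moderation, 7 with the mean of probe sets, 42 with P9 and P14 in 1 fit, and 0 to 13 with a mouse left out. The P14 count (217) was 126 after median centring, 18 without moderation, 480 in 1 fit, 1333 with mice 1 and 2 as a block, 984 among mice 9 to 12, 38 with inferred sex as a covariate, and 27 to 304 with a mouse left out. The P21 count (0) was 16 with trended and robust moderation and 0 to 2 with a mouse left out. The interaction count (0) was 9 without P14 mutant 1, and 0 to 9 over the mice left out. The causes were not tested. A sex covariate was not run at P9 or P21, where all mice were male. At P14 mutant 1 was the only male mutant, so the covariate left the genotype difference to mutant 1 against the controls. Among mice 9 to 12, sex and genotype coincided.

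*Bdnf* at P14 was lower in all 17 alternatives, but most of them could not have changed that sign. All mutants lay below all controls, so dropping or regrouping mice had to leave the difference negative. Several other settings changed only the test and left the value at -0.42. The members called were 1 (*Bdnf*) instead of 0 after quantile normalization (-0.46, adjusted p = 0.0353), in 1 fit (-0.42, 0.0497) and with the block (-0.42, 0.0134). With a mouse left out, the *Bdnf* difference ranged from -0.48 to -0.35 (adjusted p 0.156 to 0.561). Differences near 0 changed sign. With a mouse left out, *Ntrk3* at P9 ranged from -0.27 to 0.070, *Ngfr* at P14 from -0.028 to 0.14 and *Ntrk2* at P21 from -0.028 to 0.035 (-0.017 after median centring). With the sex covariate, *Ntrk2*, *Ntrk3*, *Ngfr*, *Ntf5* and *Cadps2* at P14 were 0.053, -0.11, -0.17, -0.017 and 0.00078. For mouse 1 minus mouse 2, *Ntrk2*, *Ngfr* and *Cadps2* were 0.070, -0.087 and 0.29. Left-out mice gave -0.68 to 0.10 for *Bhlhe40*, -0.28 to 0.27 for *Inhba*, -0.11 to 0.11 for *Fos* and -0.085 to 0.051 for *Egr1* at P9, -0.0073 to 0.068 for *Sort1* at P14, and -0.100 to 0.099 for *Fos*, -0.053 to 0.10 for *Arnt2*, -0.053 to 0.15 for *Vgf*, -0.087 to 0.0081 for *Sorcs3* and -0.066 to 0.28 for *Nr4a1* at P21.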
